A study of Homo sapiens with 42 samples.

Results

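The 10 RNAs described here are long noncoding host transcripts of small nucleolar RNAs (snoRNAs): GAS5, SNHG1, SNHG3, SNHG5, SNHG6, SNHG8, SNHG12, SNHG15, SNHG16 and ZFAS1. They were chosen by gene name, and all 10 were found among the 57353 names of the count table and among the 12939 genes that passed the filter on low counts. Their values come from MOLM-13 cells, a human acute myeloid leukemia line with an internal tandem duplication of the receptor kinase FLT3, kept for 12 h in RPMI or in hBMSC-CM. The hBMSC-CM medium was 50% filtered conditioned medium of HS-5 bone marrow stromal cells, so no stromal cells were added to the cultures. RPMI cultures received vehicle, the FLT3 inhibitor quizartinib at 3 nM, or the combo of quizartinib with the mTORC1 inhibitor everolimus at 10 nM. In hBMSC-CM the treatments were vehicle, quizartinib, everolimus alone and the combo at the same doses. Each of these 7 conditions had 3 cultures of this 1 cell line. Each of the 21 cultures gave an input library, from the whole clarified lysate, and a heavy polysome library, from messages carrying 5 or more ribosomes, which makes 42 libraries in 14 groups.

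Host genes of this kind carry snoRNAs in their introns, and the snoRNAs are released when the host transcript is spliced. The snoRNAs then guide chemical modification or processing of ribosomal RNA, while the spliced host RNA has only short reading frames and is known to be removed by nonsense-mediated decay when ribosomes engage it. Many host genes begin with a terminal oligopyrimidine (TOP) tract, a C followed by a run of pyrimidines at the cap, which they share with messages for ribosomal proteins and translation factors. Translation of TOP messages is known to depend on mTORC1, which is why the heavy fraction of these RNAs is of interest beside their input level.

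The first bases of the annotated transcripts are shown because they decide which of the hosts has a TOP start. Sequences were read from GRCh38 at GENCODE release 44 first exons, 5′ to 3′ on the transcribed strand, with the pyrimidine run that opens at position 1 in capitals. In 4 of the hosts with a printed sequence the start used by the most transcripts began with a C and at least 4 further pyrimidines.
GAS5: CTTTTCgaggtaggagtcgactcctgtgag
SNHG8: CTTTCacattcgggaagcgtcgggattagg
SNHG12: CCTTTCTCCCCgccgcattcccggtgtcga
ZFAS1: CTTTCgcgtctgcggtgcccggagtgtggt
These lie at chr1:173867960-173867989 (minus strand, the start of 50 of 91 GAS5 transcripts), chr4:118278758-118278787 (plus, 5 of 15 SNHG8 transcripts), chr1:28581844-28581873 (minus, 4 of 19 SNHG12 transcripts) and chr20:49278642-49278671 (plus, 5 of 14 ZFAS1 transcripts). The runs were 6, 5, 11 and 5 bases long, in that order. SNHG6 also had such a start, with a run of 7 bases at 3 of 8 transcripts, and its sequence is not printed.

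In 3 other hosts a TOP start was annotated beside a more used or equally used start without one.
SNHG3: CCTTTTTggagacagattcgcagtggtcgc
SNHG5: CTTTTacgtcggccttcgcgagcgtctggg
SNHG16: CTTTTCgaggtcggccgcgtggctggaaga
The SNHG3 start (chr1:28506043-28506072, plus strand, 1 of 3 transcripts) lay 63 bases from the other start counted for that gene. The SNHG5 start (chr6:85678704-85678733, minus strand, 3 of 89 transcripts) lay 15 bases inside the one used by 61 transcripts. The SNHG16 start (chr17:76557769-76557798, plus strand, 3 of 18 transcripts) lay 3 bases inside the most used one. The most used starts of SNHG5 and SNHG16 held the same pyrimidine stretch a few bases in rather than at position 1.
SNHG5 most used: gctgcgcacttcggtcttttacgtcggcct
SNHG16 most used: gttcttttcgaggtcggccgcgtggctgga
SNHG1 most used: CTCatttttctactgctcgtg
SNHG15 most used: ggcgcagcgcgcggcgtcagtcttggctgg
SNHG1 (chr11:62855865-62855885, minus strand, 25 of 80 transcripts) opened with a run of 3 bases, and 1 transcript with a run of 5 began 406 bases away. SNHG15 (chr7:44986639-44986668, minus strand) had no tract at any of its 14 transcripts. By this definition 5 of the 10 hosts had a TOP start at the most used position and 9 of 10 at any annotated position. The same shares were 3.67% and 18.7% over all genes kept, 65.2% and 91.3% over a list of 92 coding TOP genes, and 14.3% and 50% over 14 other SNHG genes. Annotated starts were not measured in these cells.

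The 10 genes are annotated as lncRNA, and the snoRNAs that RefSeq places inside them differ in number. GAS5 (ENSG00000234741, chromosome 1, 173858559 to 173868882) contains 11 and SNHG1 (ENSG00000255717, chromosome 11, 62851978 to 62855953) contains 9 snoRNA entries, mostly of the box C/D class that guides 2′-O-methylation. SNHG3 (ENSG00000242125, chromosome 1, 28505980 to 28510892) holds SNORA73A and SNORA73B, copies of the U17 snoRNA used in cleavage of the ribosomal RNA precursor. SNHG5 (ENSG00000203875, chromosome 6, 85650491 to 85678932) holds SNORD50A and SNORD50B. SNHG6 (ENSG00000245910, chromosome 8, 66920561 to 66926398) holds SNORD87, SNHG8 (ENSG00000269893, chromosome 4, 118278703 to 118285316) holds SNORA24, and SNHG15 (ENSG00000232956, chromosome 7, 44983019 to 44986961) holds SNORA9. SNHG12 (ENSG00000197989, chromosome 1, 28578538 to 28583132) contains 4 snoRNAs. SNHG16 (ENSG00000163597, chromosome 17, 76557727 to 76670985) and ZFAS1 (ENSG00000177410, chromosome 20, 49278178 to 49299600) contain 3 box C/D snoRNAs each.

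The libraries were made from poly(A) RNA, so they report the spliced host and hardly the snoRNA. Over the 21 input libraries the SNHG3 snoRNA rows summed to 592 counts beside 38945 for the host, the SNHG12 rows to 91 beside 15344, and the ZFAS1 rows to 19 beside 22044. For the other hosts the snoRNA rows found in the table summed to at most 2 counts in input. Whether counting used the strand is not given in the sources used here, which leaves hosts that overlap a gene on the opposite strand uncertain: GAS5 (GAS5-AS1), SNHG6 (MCMDC2), SNHG8 (PRSS12), SNHG12 (TRNAU1AP), SNHG16 (ENSG00000284526) and ZFAS1 (ZNFX1). On the same strand SNHG3 overlaps RCC1, and SNHG5 overlaps PKMP3 and ENSG00000271793, so their reads may have been split.

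Library totals were 19.4 to 38.8 M counts. All 8 myeloid markers were above 1 CPM (counts scaled to equal library size) in every group, with a summed input level of 1801 to 3294 CPM. Of 10 stromal markers COL3A1, LUM and POSTN were at 0 in all 42 libraries, while COL1A1 was higher with quizartinib in both media (input log2 change 4.43 in RPMI and 4.24 in hBMSC-CM). The summed stromal level in input was 0.80 to 4.76 CPM in RPMI vehicle, 9.61 to 41.5 CPM in RPMI quizartinib, 1.06 to 3.24 CPM in hBMSC-CM vehicle and 5.49 to 23.7 CPM in hBMSC-CM quizartinib, and its part in the host RNA results was not tested. The sum was mostly COL1A1 where it was highest, with 38.8 CPM in 1 RPMI quizartinib input library. COL1A2, the next highest marker, peaked at 2.00 CPM. In the input of each quizartinib group 1 of the 10 markers had a mean above 1 CPM. The third hBMSC-CM vehicle culture stood apart in several hosts, as given below. The 3 everolimus cultures differed from each other by less than the other groups did. Median ratios to counting error were 4.66 to 10.5 there and 14.7 to 155 elsewhere. These ratios are not gaps in standard errors and serve only to rank the groups.

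The 10 host RNAs spanned about an order of magnitude in level. Per kilobase of median annotated transcript, RPMI vehicle input held SNHG6 at 340 ± 36.4 CPM per kb (SD, n = 3 here and in the next sentences) and GAS5 at 275 ± 31.7 CPM per kb. The ranges of these leading hosts overlapped, 300 to 371 and 256 to 311 CPM per kb. SNHG8 followed at 134 ± 13.9 CPM per kb, clear of both neighbours in the order. SNHG5 was at 76.2 ± 14.1 and SNHG16 at 59.7 ± 10.4 CPM per kb, with overlapping ranges. SNHG1 (41.9), SNHG3 (41.7), ZFAS1 (37.0), SNHG15 (35.6) and SNHG12 (26.9 CPM per kb) closed the order, and each overlapped its neighbours. Every host had counts in every library, from a lowest value of 75 counts, for ZFAS1, to a highest of 11802, for GAS5.

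**Figure D1:**
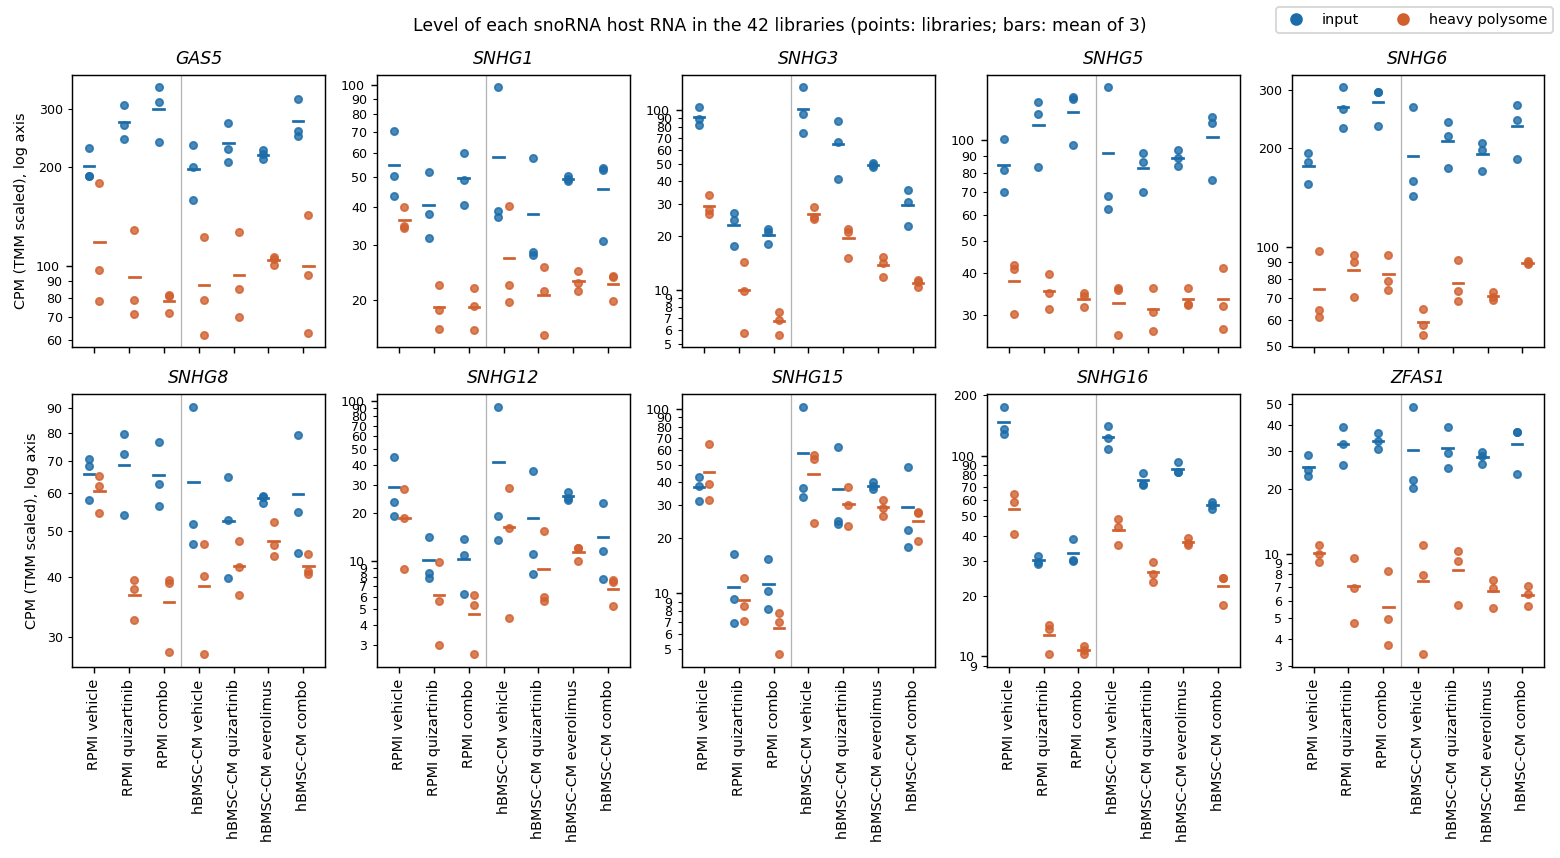
Input and heavy polysome level of each of the 10 host RNAs in the 42 libraries, as TMM-scaled CPM on a log axis that differs between panels; points are libraries, bars are means of 3, and the vertical line separates RPMI from hBMSC-CM. SNHG3 and SNHG16 fell from means of 91.7 and 147 CPM in RPMI vehicle input to 22.9 and 30.1 CPM with quizartinib, and 1 hBMSC-CM vehicle library stood high for SNHG12 at 92.1 CPM.

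In input the hosts fell into those whose condition means spanned a wide range and those that stayed within a narrow one. SNHG15, SNHG3, SNHG16 and SNHG12 spanned 5.34-fold, 4.99-fold, 4.89-fold and 4.10-fold between their lowest and highest condition mean. Without the third hBMSC-CM vehicle culture, which stood high, SNHG15 spanned 3.55-fold, SNHG3 4.53-fold and SNHG12 2.87-fold. The other 6 spanned 1.31-fold (SNHG8) to 1.56-fold (SNHG6). Without that culture these 6 spanned 1.39-fold (SNHG8) to 1.86-fold (SNHG5), with SNHG6 at 1.82-fold and GAS5 at 1.67-fold. SNHG6 and GAS5 were lowest in a vehicle condition and highest in the RPMI combo, whereas SNHG16 and SNHG3 were highest in a vehicle condition and lowest with a drug in RPMI.

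Quizartinib in RPMI was the comparison that addressed FLT3 inhibition without stromal medium. SNHG3, SNHG15 and SNHG16 fell and SNHG6 rose, so 3 hosts were called lower, where 18% of all genes were, and 1 was called higher, where 16.6% of all genes were. Calls are at a Benjamini-Hochberg adjusted p under 0.05 over all 12939 genes in edgeR's quasi-likelihood fit. The median log2 change of the 10 hosts was -0.19 against 0.08 over all genes. The library ranges of the compared groups did not overlap for 6 of the 10 hosts, where 55.7% of all genes had no overlap. In these bulk libraries fewer cells of a type and less RNA per cell cannot be told apart.

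SNHG16, host of the SNORD1 snoRNAs, was at 176, 137 and 128 CPM in the RPMI vehicle input libraries and at 29.6, 31.6 and 29.0 CPM with quizartinib. The highest treated library was far below the lowest vehicle library. The fall was 4.89-fold (log2 change -2.29, SE 0.18, adjusted p = 5.79e-12), and SNHG16 was lower in 3 of 3 replicate numbers. SNHG3, the U17 host, was at 82.5, 104 and 89.0 CPM with vehicle and at 17.6, 24.4 and 26.6 CPM with quizartinib. Its groups were as clearly apart, and the log2 change was -2.00 (SE 0.26, adjusted p = 1.47e-07).

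SNHG15, the host without an annotated TOP start, was at 38.3, 31.6 and 42.7 CPM with vehicle and at 9.30, 6.91 and 16.3 CPM with quizartinib. The groups did not overlap, although the third quizartinib library was well above the other two. The log2 change was -1.79 (SE 0.42, adjusted p = 0.000948). SNHG12 was at 19.2, 23.4 and 44.9 CPM with vehicle and at 7.84, 8.40 and 14.2 CPM with quizartinib. The third library was the highest in both groups, its log2 change was -1.52 (SE 0.62) and it did not pass (adjusted p = 0.0543). With the replicate number as a block SNHG12 passed, at a log2 change of -1.49 (adjusted p = 0.0046). It also passed with limma voom (-1.46, adjusted p = 0.0446), in a fit of the compared groups alone (-1.56, adjusted p = 0.0032) and without the filter on low counts.

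SNHG6 moved the other way. Its vehicle libraries held 192, 156 and 181 CPM and its quizartinib libraries 263, 230 and 307 CPM. All 3 treated libraries were above the vehicle libraries, a rise of 1.51-fold (log2 change 0.59, SE 0.20, adjusted p = 0.0202). Without the second RPMI vehicle culture the log2 change was 0.51 (adjusted p = 0.0925) and without the third RPMI quizartinib culture 0.48 (adjusted p = 0.0949), so this call rested on single cultures. GAS5, named for its accumulation in growth-arrested cells, was at 228, 188 and 187 CPM with vehicle and at 308, 268 and 244 CPM with quizartinib. These groups did not overlap either, but the log2 change of 0.44 (SE 0.27, 95% interval -0.09 to 0.98) did not pass (adjusted p = 0.218). GAS5 passed in a fit of the compared groups alone (0.40, adjusted p = 0.0399) and when the replicate block was set separately in input and polysome libraries (0.44, adjusted p = 0.0351), an alternative added once the data had been seen. SNHG5 (log2 change 0.40), ZFAS1 (0.35), SNHG8 (0.07) and SNHG1 (-0.44) did not pass.

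The combo in RPMI was set against the same vehicle cultures as quizartinib alone, so the comparisons share their controls. With the combo 3 hosts fell, where 19.7% of all genes were called lower, and 1 rose, where 17.7% were called higher; the hosts' median was -0.07 and that of all genes 0.07. SNHG3 was at 20.8, 18.0 and 21.9 CPM in the combo libraries (log2 change -2.18, SE 0.26, adjusted p = 2.86e-08). SNHG16 was at 38.5, 30.03 and 30.2 CPM (-2.16, SE 0.18, adjusted p = 1.58e-11) and SNHG15 at 10.3, 8.20 and 15.4 CPM (-1.73, SE 0.42, adjusted p = 0.00121). In none of these did the combo libraries reach the lowest vehicle library. Of the 10 hosts 7 had ranges without overlap, and so had 57.4% of all genes. SNHG6 held 296, 233 and 297 CPM (0.64, SE 0.20, adjusted p = 0.0114; without the second RPMI vehicle culture 0.56, adjusted p = 0.0609).

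With the replicate block the count for the combo in RPMI was 7 instead of 4, through GAS5 (log2 change 0.58, adjusted p = 0.0185), SNHG5 (0.53, adjusted p = 0.0218) and SNHG12 (-1.50, adjusted p = 0.0041). With the block 44.9% of all genes passed in either direction, against 37.4% without it. DESeq2 called GAS5 (0.65, adjusted p = 0.0467) and SNHG5 (0.60, adjusted p = 0.0348) in addition to the 4, where 40.7% of all genes passed. SNHG5 also passed without the second combo culture (0.67, adjusted p = 0.0476). GAS5 held 349, 314 and 238 CPM in the combo libraries, all above its vehicle libraries. Set directly against quizartinib in RPMI, the combo changed 0 of the 10 hosts in edgeR's test, where 0.00773% of all genes passed. None reached an unadjusted p under 0.05, and DESeq2 and limma voom called 0 as well. The log2 differences ran from -0.18 (SNHG3) to 0.30 (SNHG1).

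**Figure D2:**
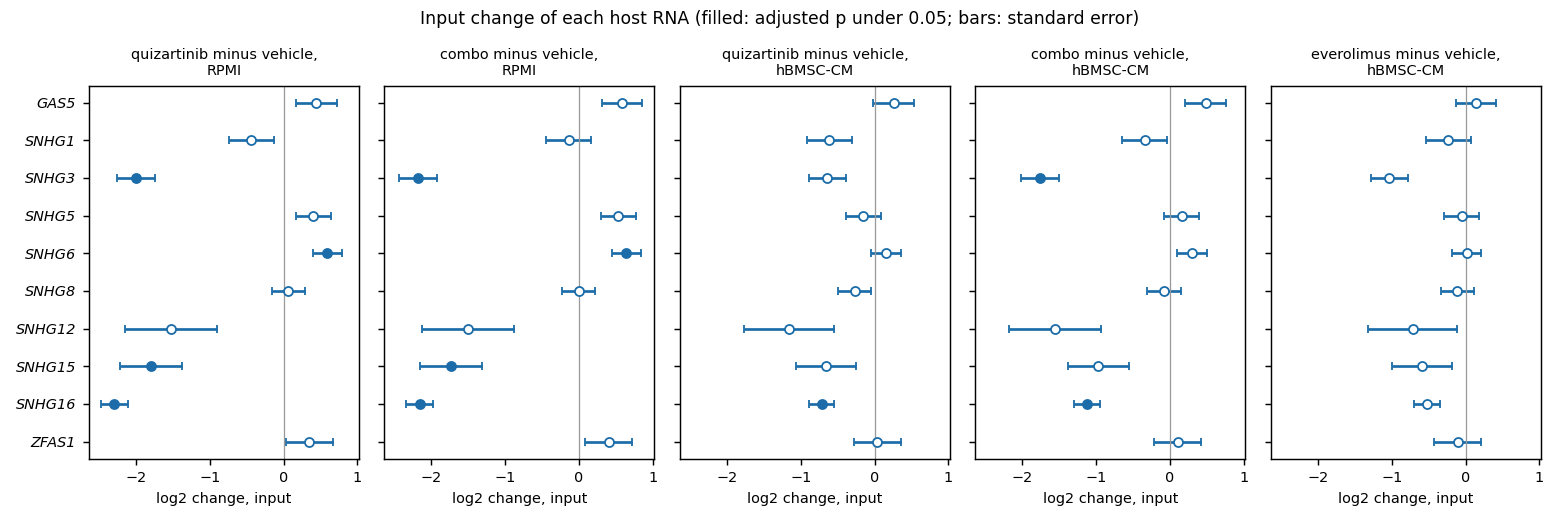
Log2 change in input of each host RNA in 5 drug comparisons; circles are edgeR estimates, bars are ± 1 standard error, and filled circles passed an adjusted p under 0.05. SNHG3, SNHG15 and SNHG16 lie between -2.29 and -1.73 in both RPMI panels, while SNHG16 lies at -0.72 with quizartinib in hBMSC-CM and no host passed with everolimus alone.

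In hBMSC-CM quizartinib lowered 1 host, SNHG16, where 6.84% of all genes were called lower; the hosts' median was -0.44 and that of all genes 0.01. SNHG16 was at 140, 109 and 123 CPM with vehicle and at 82.3, 72.2 and 71.5 CPM with quizartinib. It was the 1 host whose groups did not overlap, where 34.1% of all genes had no overlap. Its fall was 1.64-fold (log2 change -0.72, SE 0.17, adjusted p = 0.00553). Without the filter on low counts the value was -0.69 and did not pass (adjusted p = 0.111). SNHG3 was at 74.2, 95.0 and 134 CPM with vehicle and at 41.4, 66.3 and 86.7 CPM with quizartinib. These ranges overlapped, but the value was lower within each replicate number, and the log2 change of -0.64 (SE 0.25) did not pass (adjusted p = 0.0849). It passed with the replicate block (-0.65, adjusted p = 0.0374), which made the count 2, where 20.7% of all genes passed in either direction with the block and 12.3% without it. It passed with limma voom as well (-0.67, adjusted p = 0.0388). Without the third quizartinib culture 4 hosts passed, where 10.8% of all genes did in that fit, among them SNHG3 at -0.91 (adjusted p = 0.0299) and SNHG12 at -2.10 (adjusted p = 0.0398).

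The third hBMSC-CM vehicle culture decided the direction for SNHG12 and SNHG15 with quizartinib in hBMSC-CM. SNHG12 was at 13.5, 19.2 and 92.1 CPM in hBMSC-CM vehicle input and SNHG15 at 37.1, 33.3 and 103 CPM. In both, the third library was several times the others. Of the 10 hosts 9 were highest in that library among the hBMSC-CM vehicle input libraries, SNHG6 at 267 CPM and GAS5 at 232 CPM included, while SNHG16 was not. With quizartinib SNHG12 had a log2 change of -1.16 with all cultures and 0.18 without that culture, and SNHG15 had -0.66 and 0.06. Neither passed in these fits.

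The combo in hBMSC-CM lowered 2 hosts, SNHG3 and SNHG16, where 15.1% of all genes were called lower; the medians were -0.21 for the hosts and 0.02 for all genes. SNHG3 was at 22.7, 30.7 and 35.9 CPM, all below the vehicle libraries, a fall of 3.40-fold (log2 change -1.76, SE 0.26, adjusted p = 3.03e-06). SNHG16 was at 58.8, 54.4 and 56.6 CPM, a fall of 2.19-fold (-1.13, SE 0.17, adjusted p = 8.11e-06). Ranges without overlap were seen for 3 of the 10 hosts and for 43.5% of all genes. With the replicate block SNHG12 (-1.39, adjusted p = 0.0095) and SNHG15 (-0.95, adjusted p = 0.0117) passed as well, which made 4, where 34.5% of all genes passed in either direction with the block and 26.5% without it. The same 2 hosts also passed without the third combo culture (-2.10 and -1.53), without the first vehicle culture (-1.98 and -1.21) and without the second (-1.90 and -1.25). Without the third hBMSC-CM vehicle culture the changes of SNHG12 and SNHG15 were -0.24 and -0.28. In that fit SNHG6 passed as higher (0.60, adjusted p = 0.0413), where 18.3% of all genes passed in either direction.

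Everolimus alone in hBMSC-CM changed 0 hosts in edgeR's test, where 0.41% of all genes passed. SNHG3 was at 49.5, 50.9 and 47.9 CPM, below every hBMSC-CM vehicle library. Its log2 change was -1.03 (SE 0.25, adjusted p = 0.0512, and adjusted p = 0.0138 with the replicate block), and DESeq2 (adjusted p = 0.0102) and limma voom (adjusted p = 0.0245) called it. The replicate numbers did not pair the everolimus cultures with the vehicle cultures, so the blocked value is not a paired test. SNHG16 was at 82.8, 92.8 and 83.3 CPM (-0.52, SE 0.17, adjusted p = 0.221). Those were the 2 hosts with an unadjusted p under 0.05, as 1123 of all 12939 genes had, and DESeq2 and voom each called 1 host. DESeq2 called 1.27% of all genes and voom 0.812%. Ranges did not overlap for 2 hosts, where 27.7% of all genes had no overlap. Leaving out the first hBMSC-CM vehicle culture moved SNHG3 to -1.21 (adjusted p = 0.0482).

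Against quizartinib in hBMSC-CM the combo lowered SNHG3 further, the only host called, where 0.24% of all genes were called lower. The log2 change was -1.12 (SE 0.25, adjusted p = 0.0432), and the libraries named above did not overlap. Such separation was seen for 2 of the 10 hosts and for 14.7% of all genes. The call was lost in 5 of 6 fits that each left out 1 culture, with values of -0.86 (without the third quizartinib culture) to -1.28 (without the third combo culture). SNHG16 had a log2 change of -0.41 (SE 0.17, adjusted p = 0.621).

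The medium itself was compared at equal drug. Without drug hBMSC-CM changed 0 hosts, where 1.51% of all genes passed; none had an unadjusted p under 0.05, and DESeq2 and voom called 0. The log2 differences, hBMSC-CM minus RPMI, ran from -0.25 (SNHG16) to 0.62 (SNHG15). Under quizartinib 3 hosts were higher in hBMSC-CM, where 6.11% of all genes were called higher, and the medians were -0.07 and -0.03. SNHG3 was at 17.6 to 26.6 CPM in RPMI and 41.4 to 86.7 CPM in hBMSC-CM (2.83-fold, SE 0.25 on the log2 scale, adjusted p = 7.2e-05). SNHG16 was at 29.0 to 31.6 and 71.5 to 82.3 CPM (1.33, SE 0.18, adjusted p = 1.52e-06). SNHG15 was at 6.91 to 16.3 and 23.7 to 61.9 CPM (1.76, SE 0.42, adjusted p = 0.0045; 1.16 and adjusted p = 0.115 without the third hBMSC-CM quizartinib culture, 1.52 and adjusted p = 0.0513 without the second RPMI quizartinib culture). In each of these hosts every hBMSC-CM library was above every RPMI library. They were the 3 hosts without overlap, where 29.8% of all genes had none.

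The difference between the media in the quizartinib effect was tested as an interaction. It was positive for SNHG16 and SNHG3, 2 hosts, where 1.79% of all genes were called higher; a positive value means a smaller fall in hBMSC-CM. SNHG16 had 1.57 on the log2 scale (SE 0.25, adjusted p = 0.000148). SNHG3 had 1.36 (SE 0.35, adjusted p = 0.0308; 0.0078 with the replicate block), and in 7 of the 12 fits that each left out 1 culture it did not pass, with values of 1.09 to 1.38. SNHG15 had 1.14 (SE 0.58, adjusted p = 0.525). The median over the hosts was -0.18 and that over all genes -0.04.

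The heavy polysome libraries were set against the input of the same condition to describe how much of each host RNA sat with 5 or more ribosomes, relative to other messages. The 8 hosts GAS5, SNHG1, SNHG3, SNHG5, SNHG6, SNHG8, SNHG16 and ZFAS1 had a lower scaled level in the heavy fraction than in input in all 21 cultures. SNHG12 was lower in 19 of 21 cultures and SNHG15 in 13 of 21. The share of all genes lower in every culture is not given here. The fractions were matched by replicate number, and their pairing within a culture is not established. A value of -1 on this scale means that the TMM-scaled level in the heavy fraction was 0.5 of the TMM-scaled level in input, which is not a ratio of read shares. The measure does not count ribosomes, and it depends on the scaling between fractions: scaling by library total alone moved the median of all genes by -0.28 to -0.55. Relative to the median of all genes, the hosts' median was -0.89 to -1.66 over the 7 conditions with TMM scaling and -0.90 to -1.65 by library total.

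**Figure D3:**
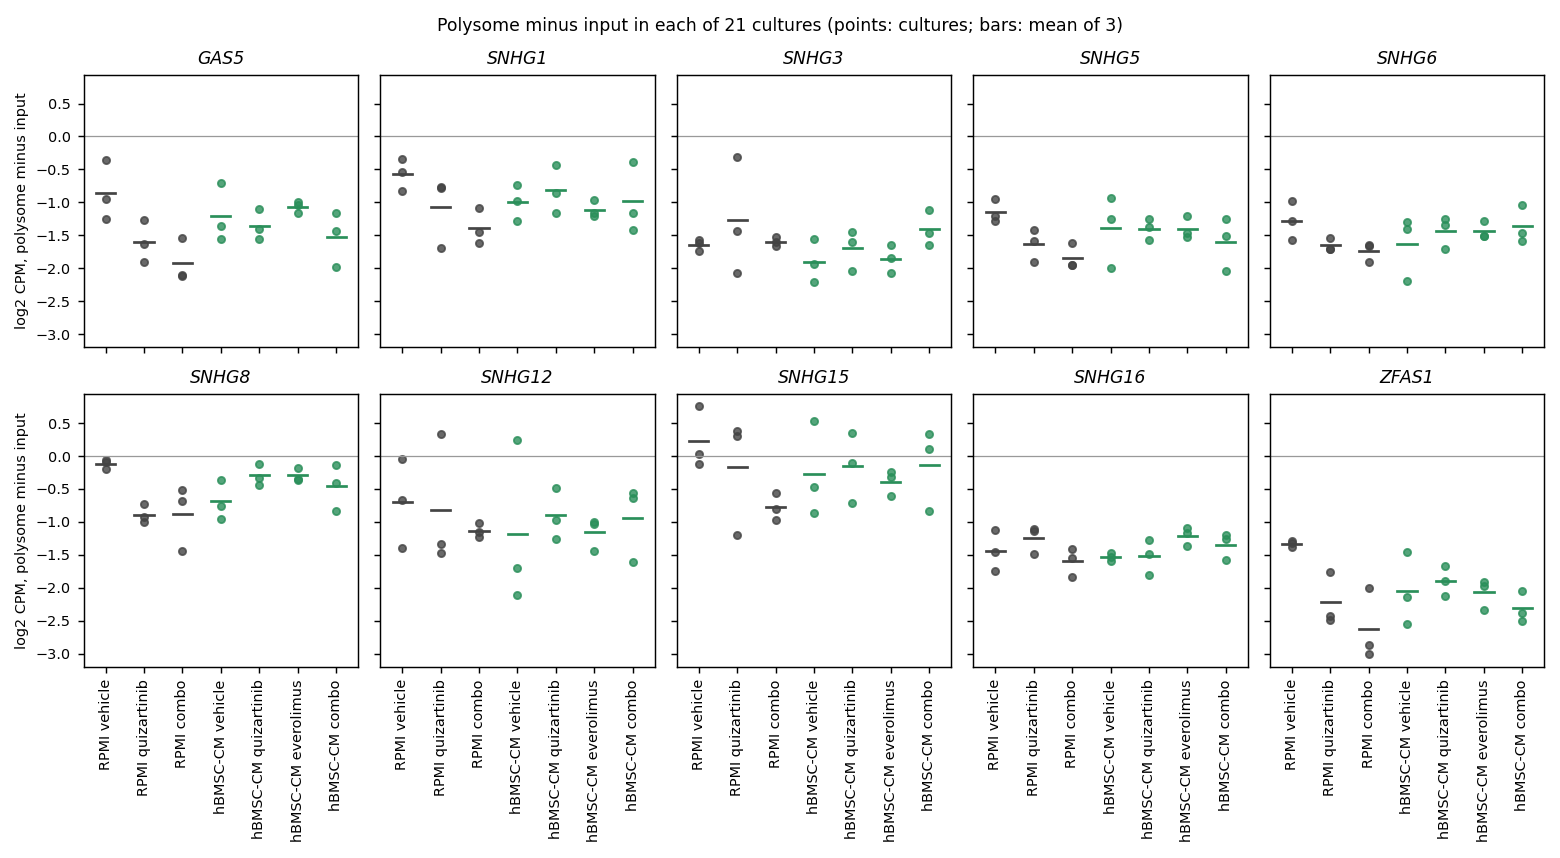
Log2 CPM of heavy polysome minus input for each host RNA in each of the 21 cultures (grey RPMI, green hBMSC-CM); points are cultures, bars are means of 3, and the line at 0 marks equal scaled level in both fractions. ZFAS1 reaches the lowest values, -3.01 in 1 RPMI combo culture, and SNHG15 lies on both sides of 0.

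Within conditions most of the 10 hosts were called lower in the heavy fraction. The number called was 6 in RPMI vehicle (where 33.9% of all genes were called lower), 8 in RPMI quizartinib (26.7%), 8 in RPMI combo (27.6%), 8 in hBMSC-CM vehicle (34%), 7 in hBMSC-CM quizartinib (28.9%), 7 in hBMSC-CM everolimus (30.7%) and 7 in hBMSC-CM combo (30.1%). The hosts' median log2 difference ran from -0.96 in RPMI vehicle to -1.60 in RPMI combo, and that of all genes from -0.11 to 0.06.

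ZFAS1, host of the SNORD12 snoRNAs, was the lowest host in 6 of the 7 conditions by the fitted difference. It was at -1.29, -1.33 and -1.38 in RPMI vehicle, at -1.75, -2.42 and -2.48 with quizartinib and at -2.87, -3.01 and -2.01 with the combo. The vehicle cultures lay close together and above every treated culture. The fitted differences were -1.34 (SE 0.33, adjusted p = 0.000669), -2.20 (SE 0.34, adjusted p = 1.95e-06) and -2.57 (SE 0.34, adjusted p = 1.62e-07). In RPMI vehicle 20.1% of all genes had a lower difference than ZFAS1, and in RPMI combo 2.7% did.

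GAS5 was called lower in all 7 conditions, with fitted differences of -0.77 in RPMI vehicle to -1.94 in RPMI combo. Its cultures were at -0.35, -1.26 and -0.94 with vehicle, -1.26, -1.90 and -1.63 with quizartinib and -2.10, -2.12 and -1.54 with the combo in RPMI. The second vehicle culture met the highest quizartinib culture, and no combo culture reached the vehicle range. The RPMI vehicle call (adjusted p = 0.0151) was lost without the second vehicle culture (-0.59, adjusted p = 0.126) or the third (-0.69, adjusted p = 0.0782). GAS5 had 32.9% of all genes below it in RPMI vehicle and 6.9% in RPMI combo.

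SNHG3, SNHG5, SNHG6 and SNHG16 were also called lower in 7 of 7 conditions. Their fitted differences ran from -1.20 to -1.94 (SNHG3), -1.15 to -1.86 (SNHG5), -1.25 to -1.74 (SNHG6) and -1.21 to -1.61 (SNHG16). SNHG16 was the steadiest of these across conditions although its input level fell, and SNHG3 held 1 culture apart, at -0.30 in RPMI quizartinib beside -2.07 and -1.43. SNHG1 was called in 6 conditions, with -0.60 in RPMI vehicle (adjusted p = 0.0879, and 0.041 with the replicate block) and -1.39 in RPMI combo. In hBMSC-CM quizartinib its value of -0.87 did not pass without the first culture (-0.88, adjusted p = 0.0516) or the third (-0.62, adjusted p = 0.127).

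SNHG8, host of SNORA24, was near equal in both fractions in RPMI vehicle. Its 3 vehicle cultures were at -0.07, -0.09 and -0.19, and the quizartinib cultures at -1.01, -0.73 and -0.93. No treated culture came near the vehicle cultures, and the fitted differences were -0.12 (adjusted p = 0.661) and -0.90 (SE 0.23, adjusted p = 0.00108). The vehicle value depends on the scaling, at 0.03 in DESeq2 and -0.67 by library total (adjusted p = 0.0108). SNHG8 also passed in RPMI combo (-0.88) and in hBMSC-CM vehicle (-0.72, adjusted p = 0.0065), and in no other condition in the main fit. Without the first combo culture the RPMI combo value was -0.60 (adjusted p = 0.0661). The hBMSC-CM combo value of -0.50 (adjusted p = 0.054) passed with DESeq2 (-0.50, adjusted p = 0.0439) and with the replicate block (-0.48, adjusted p = 0.0266). By library total SNHG8 passed in hBMSC-CM quizartinib (-0.74, adjusted p = 0.0059), everolimus (-0.62, adjusted p = 0.0202) and combo (-0.90, adjusted p = 0.001), so these calls depend on the scaling.

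SNHG12 and SNHG15 passed in 0 of 7 conditions in edgeR's test, and DESeq2 and voom called neither. At an unadjusted p under 0.05 there was 1 case, SNHG12 in hBMSC-CM vehicle (adjusted p = 0.0544), where 8647 of all 12939 genes were under it. With the replicate block SNHG12 passed in 4 conditions, RPMI combo (-1.13, adjusted p = 0.0223), hBMSC-CM vehicle (-1.27, adjusted p = 0.0086), hBMSC-CM quizartinib (-0.99, adjusted p = 0.0412) and hBMSC-CM everolimus (-1.16, adjusted p = 0.0164). SNHG15 passed with it in 1, RPMI combo (-0.78, adjusted p = 0.025). In either direction that fit called 64.8% of all genes in RPMI combo and 69% in hBMSC-CM vehicle. In hBMSC-CM quizartinib it called 64.9% and in hBMSC-CM everolimus 65.6%. The replicate numbers did not pair the everolimus cultures with the others, so the block is not a pairing there. SNHG12 varied between cultures of 1 condition, from 0.25 to -2.11 in hBMSC-CM vehicle, and its fitted differences were -0.65 to -1.35. SNHG15 ran from 0.75 in an RPMI vehicle culture to -1.20 in an RPMI quizartinib culture. Its fitted difference of 0.27 in RPMI vehicle was -0.29 by library total, so its direction there is not settled, and in the other conditions it was -0.23 to -0.80.

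**Figure D4:**
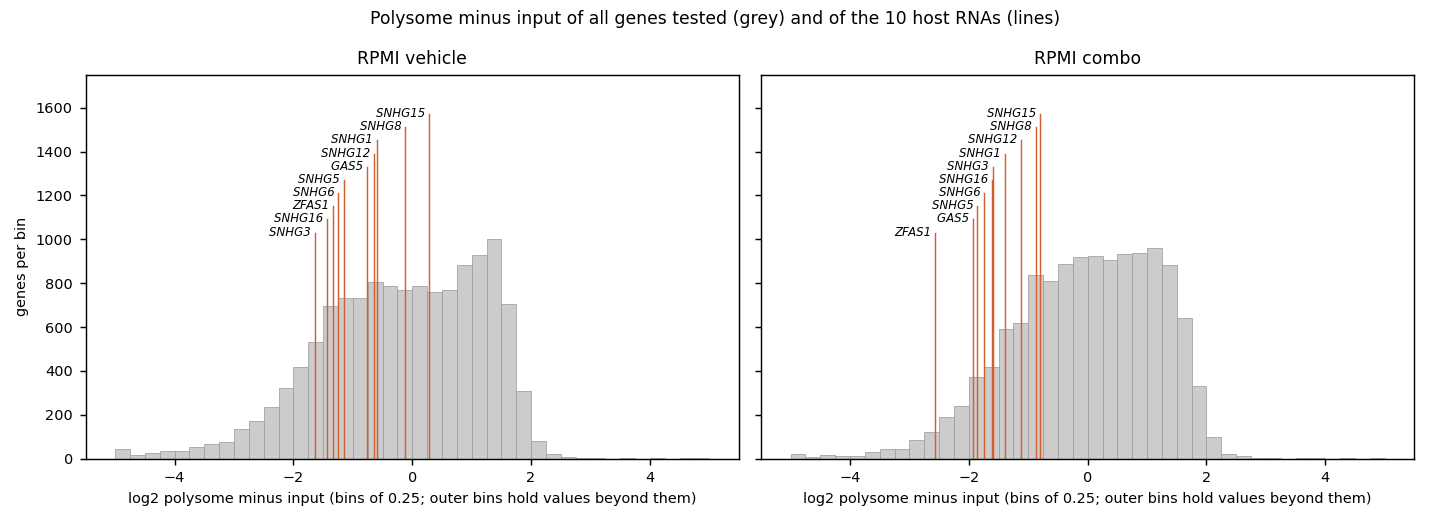
Number of genes per 0.25-wide bin of the log2 heavy polysome minus input difference in RPMI vehicle (left) and RPMI combo (right), for the 12939 genes tested, with lines at the 10 host RNAs whose heights serve only to separate the names. In RPMI vehicle the hosts run from -1.64 (SNHG3) to 0.27 (SNHG15), and in RPMI combo all 10 are negative, from -2.57 (ZFAS1) to -0.80 (SNHG15).

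Whether a drug changed the heavy fraction beyond its change in input was tested as the polysome change minus the input change. No host passed in any of the 10 comparisons in edgeR's test. With quizartinib in RPMI, where 1.55% of all genes passed in either direction, 8 of 10 hosts had negative values, with a median of -0.50 against 0.15 over all genes. Scaling by library total moved the median of all genes by 0.23, and relative to it the hosts' median was -0.65 with TMM and -0.67 by library total. ZFAS1 had -0.86 (SE 0.46, adjusted p = 0.373), GAS5 -0.79 (SE 0.39, adjusted p = 0.319) and SNHG8 -0.79 (SE 0.32, adjusted p = 0.216). At an unadjusted p under 0.05 there were 2 of the 10 hosts and 2014 of all 12939 genes, and DESeq2 and voom called 0 hosts. With the block set separately in each kind of library GAS5 (-0.76, adjusted p = 0.0417) and SNHG8 (-0.78, adjusted p = 0.043) passed, where 11.7% of all genes did.

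The combo in RPMI gave larger values. There 4.99% of all genes passed, 0 hosts were called and 4 had an unadjusted p under 0.05, as had 2454 of all 12939 genes. DESeq2 called 2 hosts, where 5.63% of all genes passed, and voom 0. The hosts' median was -0.73 against 0.15 over all genes, and relative to the median of all genes it was -0.88 both with TMM scaling and by library total. ZFAS1 had -1.23 (SE 0.46, 95% interval -2.13 to -0.33, adjusted p = 0.116) and GAS5 -1.17 (SE 0.39, 95% interval -1.93 to -0.41, adjusted p = 0.0727). With the replicate block both passed, GAS5 at -1.10 (adjusted p = 0.0114) and ZFAS1 at -1.29 (adjusted p = 0.0194), so the count was 2 instead of 0, where 10.4% of all genes passed with the block. With the block set separately in each kind of library 5 hosts passed, GAS5 (-1.08, adjusted p = 0.0025), ZFAS1 (-1.29, adjusted p = 0.0082), SNHG5 (-0.70, adjusted p = 0.033), SNHG8 (-0.76, adjusted p = 0.0338) and SNHG15 (-0.99, adjusted p = 0.039), where 18% of all genes did. On the CPM scale GAS5 was at 179, 78.4 and 97.4 in the RPMI vehicle polysome libraries and at 81.3, 72.2 and 81.9 in the combo, ranges that overlapped, while its input libraries lay higher in the combo. SNHG15 (-1.07), SNHG1 (-0.80), SNHG8 (-0.76), SNHG5 (-0.71), SNHG6 (-0.49) and SNHG12 (-0.48) were negative. SNHG3 was at 0.05. SNHG16 was at -0.18, and at 0.10 by library total.

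**Figure D5:**
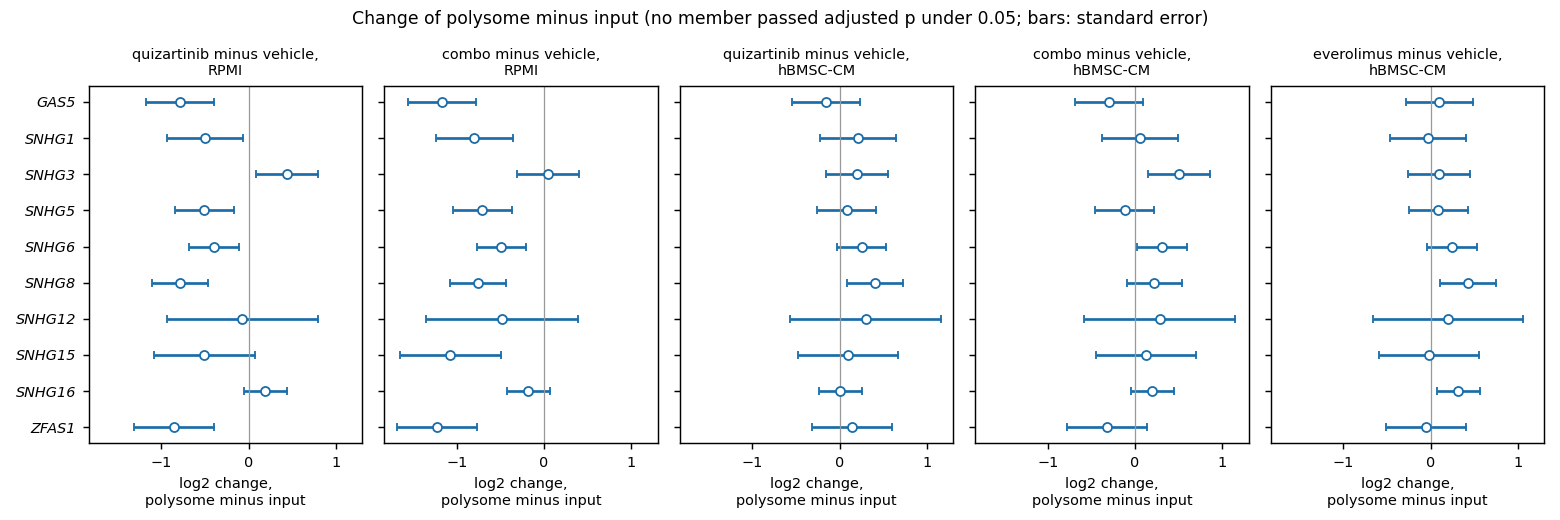
Change of the log2 heavy polysome minus input difference of each host RNA in 5 drug comparisons; circles are edgeR estimates, bars are ± 1 standard error, and open circles did not pass an adjusted p under 0.05. GAS5 and ZFAS1 lie at -1.17 and -1.23 with the combo in RPMI, and the hosts lie between -0.32 and 0.50 in the hBMSC-CM panels.

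In hBMSC-CM the hosts' medians of the same measure were 0.17 with quizartinib, 0.16 with the combo and 0.10 with everolimus. Of all genes 0%, 0.0232% and 0% passed, 0 hosts were called and none had an unadjusted p under 0.05, in DESeq2 and voom 0 as well. Their 95% intervals still allow sizable changes: for GAS5 the combo value was -0.30 (SE 0.39) and for ZFAS1 -0.32 (SE 0.46). Between the media without drug all 10 values were negative, from -0.10 (SNHG16) to -0.70 (SNHG12), with a median of -0.46, and none passed or had an unadjusted p under 0.05, in DESeq2 and voom 0 as well. The background was 0%. The third hBMSC-CM vehicle culture, high in input, was at -2.00 for SNHG5, beside -0.93 and -1.25 in the others. RPMI vehicle ran from -0.95 to -1.29. For SNHG6 it was at -2.20, beside -1.30 and -1.40, with -0.98 to -1.57 in RPMI vehicle. SNHG12, SNHG16 and ZFAS1 were lowest in the second hBMSC-CM vehicle culture instead. These vehicle cultures also enter the hBMSC-CM drug medians above. The other 3 comparisons, combo against quizartinib in each medium and medium under quizartinib, also had a background of 0% and 0 hosts with an unadjusted p under 0.05 or a call in DESeq2 or voom. For the difference between media in the quizartinib effect, 0% of all genes passed. SNHG8 had 1.19 (SE 0.45, adjusted p = 0.951) and ZFAS1 had 1.00 (SE 0.65). SNHG8 was the 1 host with an unadjusted p under 0.05, which 624 of all 12939 genes had.

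The hosts were also described by their annotated start. The 5 with a TOP run at the most used start (GAS5, SNHG6, SNHG8, SNHG12 and ZFAS1) had a median input change of 0.35 with quizartinib in RPMI and the other 5 of -1.79. SNHG12 went against its class, at -1.52, and so did SNHG5, at 0.40. In the change of polysome minus input with the combo in RPMI the medians were -0.76 and -0.71. Within RPMI combo the polysome minus input medians were -1.74 and -1.60. With 5 genes in each class no test was made.

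Across the 21 cultures some hosts varied together in input log2 CPM, given as a description since the cultures share conditions, replicate numbers and library scaling. SNHG5 went with SNHG6 (Pearson r = 0.90, n = 21) and with ZFAS1 (0.90), SNHG3 with SNHG16 (0.89) and SNHG12 with SNHG15 (0.87), while GAS5 and SNHG3 ran opposite (-0.80). For polysome minus input SNHG1 and SNHG5 (0.82) and GAS5 and ZFAS1 (0.79) were close, and SNHG3 and SNHG8 were not (-0.18). Among 8422 other genes with at least 10 CPM, the 5 with the profile most like the hosts' median polysome minus input were POLR2I (r = 0.95, n = 21), GAMT (0.91), CCDC167 (0.89), DGCR6L (0.89) and RPUSD1 (0.89). For the hosts' median input level they were NR2F6 (0.93), RPUSD1 (0.92), RPL22L1 (0.92), NMRAL1 (0.92) and TSEN54 (0.91).

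Lists of related genes give the setting. Over all genes 18% were called lower and 16.6% higher in input with quizartinib in RPMI. In the heavy fraction 33.9% were lower in RPMI vehicle and 27.6% in RPMI combo. In hBMSC-CM input 6.84% were lower with quizartinib and 15.1% with the combo. Other noncoding SNHG genes, 14 of 19 listed, had 3 lower and 2 higher in input with quizartinib in RPMI, with SNHG4 at -1.93 and SNHG7 at 0.71 and a median of -0.02. In the heavy fraction 8 of the 14 were lower in RPMI vehicle and 10 in RPMI combo, with SNHG25 at -4.50. In the change of polysome minus input 0 of them passed with the combo in RPMI, at a median of -0.50. The proteins that bind and mature snoRNAs, 12 genes, fell in 10 cases in input with quizartinib in RPMI (median -1.59), with NOP56, a core protein of box C/D particles, at -2.64. The 2 that did not pass included NOP10, a core protein of box H/ACA particles, at -0.58. In hBMSC-CM 5 of the 12 were lower with quizartinib (median -0.77), 9 with the combo (median -1.28) and 0 with everolimus (median -0.43).

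Coding genes with TOP starts, which make most of the translation machinery, were counted in the same fits. In the change of polysome minus input in RPMI, 1.55% of all genes passed with quizartinib and 4.99% with the combo, in either direction. Of 92 coding TOP genes 3 were lower in RPMI quizartinib input, and in the change of polysome minus input 63 were lower with quizartinib (median -1.52) and 70 with the combo (median -1.77), from RPS15A at -2.80 to VIM at 0.75. Within RPMI vehicle 34 of these TOP genes were higher and 17 lower in the heavy fraction (median 0.27). Of all 12939 genes 4070 were higher and 4387 lower there. Within RPMI combo 80 of the TOP genes were lower (median -1.60). The medians of the noncoding hosts were -0.96 in RPMI vehicle and -1.60 in RPMI combo. Coding snoRNA hosts, 47 genes of which many are TOP genes too, had 21 lower with quizartinib (median -1.03) and 24 lower and 1 higher with the combo in RPMI (median -1.17). Of 10 nonsense-mediated decay factors 1, SMG5 at -0.61, was lower in RPMI quizartinib input. The 4 nuclear noncoding RNAs kept as a reference were lower in the heavy fraction in RPMI vehicle, with NEAT1 at -4.08 and a median of -3.52, further down than the median of the snoRNA hosts.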

How the data were processed

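Input and heavy polysome libraries of 21 MOLM-13 cultures were sequenced. The authors prepared poly(A) libraries, read pairs on a NovaSeq6000, trimmed with BBDuk (reads under 50 bases removed), aligned to hg38 (Ensembl release 96) with STAR 2.6.0a and deposited raw counts per gene. The strand setting of counting is not given in the sources used here. The sources used here mention no molecular identifiers, so reads were not taken as independent molecules. Standard errors and intervals come from the edgeR fit over cultures, and only the spread between replicate cultures is set against counting error.

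Group and replicate number came from the labels, and the study's methods call the replicates biological. Of 58884 rows 25133 held no count. Rows sharing a name (150 names) were summed to 57353 names, and genes with a mean of at least 1 count and 1 CPM were kept (12939 genes, 99.8% of counts). No column was left unused (0). All 42 libraries entered 1 robust quasi-likelihood fit (edgeR 4.0.16, R 4.3.3) with 14 group means, TMM scaling (factors 1.06 to 1.25 in input, 0.705 to 1.04 in polysome) and, like the model in the study's methods, no blocking factor. The biological coefficient of variation was 0.279. The 10 comparisons were made in input and as polysome change minus input change, and polysome was set against input within the 7 conditions. Adjusted p-values are Benjamini-Hochberg over all genes kept. CPM are TMM scaled, and log2 CPM used a prior count of 2. Levels per kb divide by the median length of annotated transcripts. DESeq2 1.42.0, limma voom 3.58.1, library-size scaling, no low-count filter, blocks, groups-only fits and leaving out each culture were alternatives. The scripts were tested on simulated data. Summaries used Python 3.11.15 with pandas 2.3.3 and matplotlib 3.10.9.

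Same-numbered cultures deviated together from their group means, with correlations of 0.284 to 0.658 in input and 0.153 to 0.715 in polysome libraries over 45 pairs each. With everolimus alone they did not (-0.059 to 0.0023 and -0.238 to 0.103, 18 pairs each), so within a fraction the numbers pair all conditions but that one. Input and polysome libraries of 1 culture deviated together only weakly or not at all (-0.044 to 0.303, 21 cultures). Pairing of the fractions within a culture is therefore not established. Members and lists were chosen with earlier results of these data known. All 10 hosts were named, from other lists at most the 2 highest and 2 lowest genes, and the 5 genes most like the hosts' median in each measure. A TOP start was defined as C plus at least 4 pyrimidines. Some genes that overlap the hosts are not reported here.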

Additional observations from a re-analysis of the deposited data

Results flagged for a closer look

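Of the host RNAs, 2 had a quizartinib effect on input that differed between media in the interaction test over all genes. SNHG16 had a difference of 1.57 on the log2 scale (adjusted p = 0.000148), from -2.29 in RPMI to -0.72 in hBMSC-CM. SNHG3 had a difference of 1.36 (adjusted p = 0.0308), from -2.00 to -0.64, and its call depended on single cultures and on the scaling. Groups of 3 were not tested for single outlying libraries.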

How the results depend on the processing

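Counts of hosts called moved by more than 1.5 times in these cases. Input, quizartinib in RPMI: 4 became 7 with a replicate block within each fraction, an alternative chosen after seeing the data. Of all genes 34.6% passed in the main fit and 48.9% with that block. Input, quizartinib in hBMSC-CM: 1 became 2 with the replicate block, 4 with the block within each fraction and 2 with limma voom (1 to 4 when leaving out a culture). The share of all genes was 12.3% in the main fit, and 20.7%, 29.4% and 15.2% in these fits, in that order. Input, combo in RPMI: 4 became 7 with the replicate block, 7 with the block within each fraction and 7 in a fit of the compared groups alone (3 to 5 when leaving out a culture). The share of all genes was 37.4% in the main fit, and 44.9% and 51.9% with these 2 blocks. Input, combo in hBMSC-CM: 2 became 4 without the low-count filter, 4 with the replicate block and 5 with the block within each fraction (2 to 4 when leaving out a culture). The share of all genes was 26.5% in the main fit, and 34.5% and 42.5% with these 2 blocks. Input, everolimus in hBMSC-CM: 0 became 1 with DESeq2, 1 without the filter, 1 with the replicate block, 2 with the block within each fraction and 1 with voom (0 to 1 when leaving out a culture). The share of all genes was 0.41% in the main fit, 1.89% with the replicate block and 5.22% with the block within each fraction. Input, combo against quizartinib in hBMSC-CM: 1 became 0 by library size and 0 in the compared groups alone (0 to 1 when leaving out a culture). Input, quizartinib effect between media: 2 became 1 by library size and 1 in the compared groups alone (1 to 2 when leaving out a culture). Polysome minus input, quizartinib in RPMI: 0 became 2 with the block within each fraction, while the share of all genes went from 1.55% to 11.7%. Polysome minus input, combo in RPMI: 0 became 2 with DESeq2, 1 without the filter, 2 with a culture block, 2 with the replicate block, 5 with the block within each fraction and 2 in the compared groups alone. The share of all genes was 4.99% in the main fit, 5.63% with DESeq2, 10.4% with the replicate block and 18% with the block within each fraction. For fits by library size, without the filter, with a culture block or of the compared groups alone, no share of all genes is given in this section. The same holds for the ranges when leaving out a culture. Those moved counts can therefore not be set against all genes here. Other counts, 316 of 359 checked, stayed within 1.5 times.

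SNHG8 within RPMI vehicle reversed with DESeq2, to 0.028 from -0.12. Without the third hBMSC-CM vehicle culture SNHG12 reversed to 0.18 and SNHG15 to 0.059 with quizartinib in hBMSC-CM; without the third hBMSC-CM quizartinib culture they were -2.10 and -1.26. SNHG6 lost its call without the low-count filter with quizartinib (0.61, adjusted p = 0.0777) and with the combo (0.65, adjusted p = 0.0524) in RPMI. SNHG8 in hBMSC-CM vehicle lost its call without the filter (-0.62, adjusted p = 0.055) and in a fit of its own groups (-0.73, adjusted p = 0.0612). The replicate block changed no call of a host other than those given with the results. CPM per library total moved 43 of 140 group means by more than 1 SD. Causes were not tested. A replicate shared by number gives no pairing for the everolimus cultures, and their small spread enters the shared estimate. With 3 cultures a group, changes below the intervals given were not detectable.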
